A study of Mus musculus with 12 samples.

Results

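The genes described here bring long-chain fatty acids into the liver cell, carry them through the cytosol and activate them to acyl-CoA. They were taken from a list of 9 symbols, *Cd36*, *Slc27a2*, *Slc27a4*, *Fabp1*, *Fabp2*, *Dbi*, *Acsl3*, *Acsl4* and *Acsl5*, matched to the gene names of the array's probesets, and 8 of the 9 had a value among the 19938 genes measured. *Acsl3* was read only by a probeset that it shares with *Utp14b*, so no value is given for it. Whole livers of 6 *Ppara*-/- and 6 *Ppara*+/+ mouse fetuses, taken by cesarean section at E19.5, were hybridized 1 per array. The null allele is carried in the germline, so the loss is not limited to 1 cell type, and both genotypes came from matings of heterozygous parents. The labels name the strain SV129 and the methods a C57BL/6 background. Litters are not named in the labels, and the methods give fewer litters than livers for each genotype, so that some fetuses were littermates.

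Fatty acids enter the hepatocyte across a membrane that holds the scavenger receptor CD36 and the transport proteins of the SLC27 family. In the cytosol they are bound by fatty acid-binding proteins, of which FABP1 is the abundant liver form, and acyl-CoA synthetases then join them to coenzyme A, after which they can be oxidized, stored or built into membranes. PPARα, the nuclear receptor encoded by *Ppara*, binds fatty acids as ligands and acts with RXR on DNA elements made of a repeated hexamer, and *Fabp1* is one of its classical target genes. The question here was how far each step of this route depended on *Ppara* before birth.

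The sequence just before the start of *Fabp1* and *Cd36* holds a match to such an element, and those of *Slc27a2*, *Fabp2* and *Acsl5*, which with *Fabp1* were the members lowered in *Ppara*-/- livers, are shown beside them because theirs held none. Each line gives 150 bases before the annotated start, 5′ to 3′ along the gene, in RefSeq's sequence of GRCm38.p6, with the 2 matching hexamers in capitals.
Fabp1, chr6:71199729-71199878, plus strand: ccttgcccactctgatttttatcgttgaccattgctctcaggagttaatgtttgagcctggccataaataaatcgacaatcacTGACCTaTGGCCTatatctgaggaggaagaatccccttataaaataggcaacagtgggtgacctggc
Cd36, chr5:17835897-17836046, minus strand: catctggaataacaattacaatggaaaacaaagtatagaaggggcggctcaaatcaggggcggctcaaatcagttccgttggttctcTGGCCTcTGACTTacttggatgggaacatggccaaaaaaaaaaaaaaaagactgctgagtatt
Slc27a2, chr2:126552874-126553023, plus strand: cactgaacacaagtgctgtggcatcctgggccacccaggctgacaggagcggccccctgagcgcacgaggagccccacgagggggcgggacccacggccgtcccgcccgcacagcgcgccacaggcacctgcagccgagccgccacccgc
Fabp2, chr3:122894922-122895071, plus strand: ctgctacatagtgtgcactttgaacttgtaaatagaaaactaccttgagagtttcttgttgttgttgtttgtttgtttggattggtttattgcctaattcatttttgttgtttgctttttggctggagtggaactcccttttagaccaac
Acsl5, chr19:55253219-55253368, plus strand: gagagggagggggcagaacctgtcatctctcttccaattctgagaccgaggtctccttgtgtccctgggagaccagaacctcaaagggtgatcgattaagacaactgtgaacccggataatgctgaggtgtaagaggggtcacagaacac
The search was for the hexamer AGGTCA, any single base, and AGGTCA again, on both strands, with at most 2 mismatches over both hexamers, in 300 bases around each start (250 before and 50 after). The match before *Fabp1* had 1 mismatch, lay at chr6:71199812-71199824 and began at position -67 from the start. That of *Cd36* had 2 mismatches, lay at chr5:17835947-17835959 and began at position -63 from the start. Both read on the strand opposite to the gene, so that the capitals show the reverse complement. The 9 members had 10 such promoters in the table, *Dbi* having a pair, and 2 of the 10 held a match. Of all 32851 promoters, 0.554% held a match with at most 1 mismatch and 3.86% one with at most 2. The closest stretches in the promoters of *Slc27a2*, *Fabp2* and *Acsl5* had 3 mismatches each, as had that of *Acsl4*, which was not called. The share of all promoters with a stretch that close was not counted. A match describes the letters only, and binding was not measured here.

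The arrays were alike in their overall signal, with medians from 6.71 to 6.75 on the log2 scale and correlations between arrays from 0.988 to 0.996, and their number limits the precision. *Ppara* itself (probeset 10425987) lay 1.01 lower on the log2 scale (SE 0.06, adjusted p = 3.6e-08), and the genotypes did not overlap. The sources used here do not give whether this probeset lies in the disrupted part of the gene. By *Xist* and the Y-linked genes, the *Ppara*-/- group held 5 females and 1 male, against 3 females and 3 males in the *Ppara*+/+ group. The animal numbers were also unevenly spread, as 4 *Ppara*-/- and 2 *Ppara*+/+ fetuses held the 6 highest. Of the 8 measured hepatocyte markers 0 were called, and their mean log2 signal was 12.41 to 12.49 in *Ppara*-/- livers and 12.37 to 12.45 in *Ppara*+/+ livers. *Krt8* was at 0.27 (limma, adjusted p = 0.055), with 5 of 6 *Ppara*-/- livers above every *Ppara*+/+ liver. In *Hnf4a* (-0.06, adjusted p = 0.38) 5 of 6 lay below. *Alb*, *Ttr*, *Apoa1* and *Fgb* had group means from 13.21 to 13.56, near the highest value on the arrays (13.91), and how far that limits them was not tested. In whole liver, fewer cells of a type and less RNA per cell cannot be told apart.

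Of the 8 measured members, 4 were lower in *Ppara*-/- livers and 0 higher (limma, adjusted p under 0.05 over all genes), where 3.82% of all genes were lower and 3.42% higher. *Fabp1*, *Fabp2*, *Slc27a2* and *Acsl5* fell, so that the called members included 1 transport protein, both fatty acid-binding proteins and 1 long-chain synthetase. All 8 differences were below 0, with a median of -0.29 on the log2 scale, against a median of 0.01 over all genes. In 3 members every *Ppara*-/- liver lay below every *Ppara*+/+ liver, which held for 2.29% of all genes, and in 0 members did every *Ppara*-/- liver lie above, which held for 1.3%. The members were chosen with earlier results of these data known, so setting them against all genes is a description and no test. The p-values do not allow for shared litters. The exact Mann-Whitney test gave *Fabp1*, *Slc27a2* and *Acsl5* an unadjusted p of 0.0022, the smallest that 6 livers against 6 allow, and an adjusted p of 0.060. It called 0 of all genes after adjustment, with 6 members and 3686 genes at an unadjusted p under 0.05.

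**Figure D1:**
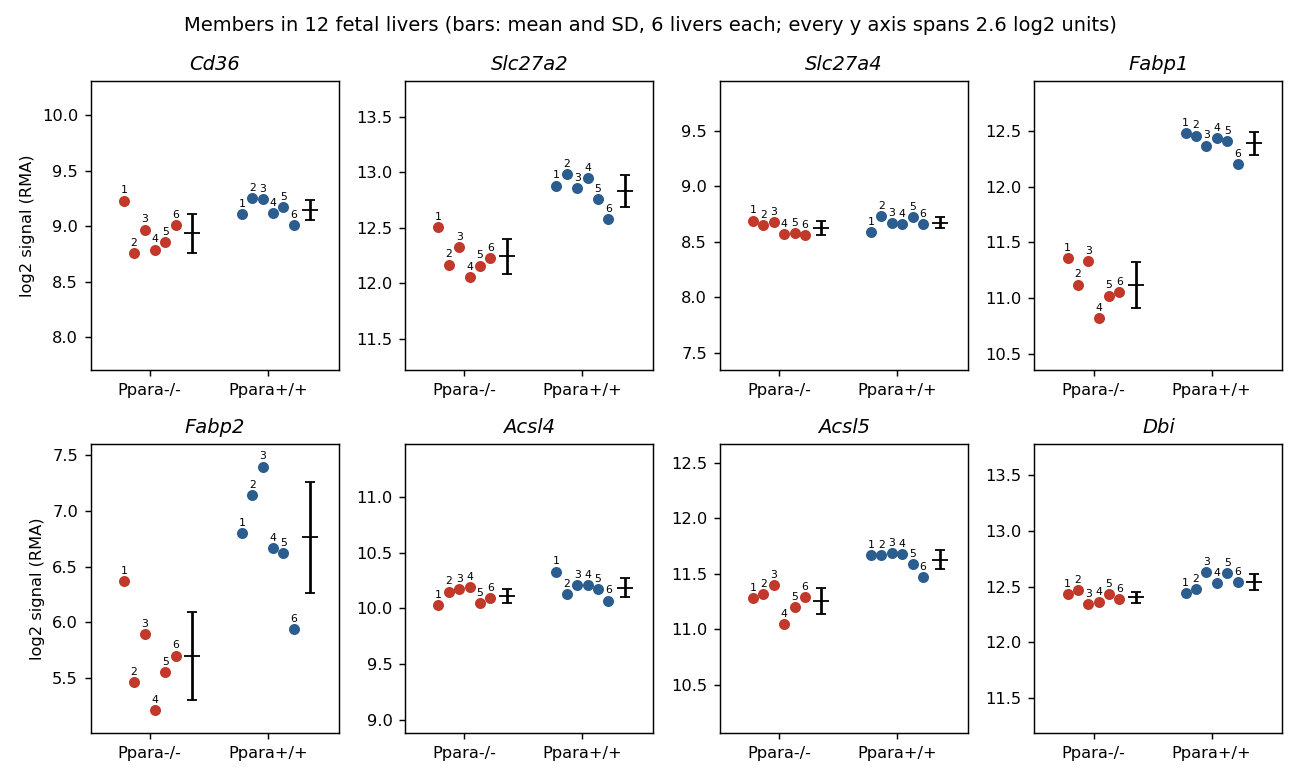
Log2 RMA signal (y axis) of the 8 measured members in each of 6 *Ppara*-/- livers (red, left) and 6 *Ppara*+/+ livers (blue, right), with the mouse number above each point and the mean and SD beside each group; every y axis spans the same number of log2 units. The genotypes are apart in *Fabp1*, *Slc27a2* and *Acsl5*, and in *Fabp2* mouse 1 of the *Ppara*-/- group (6.37) lies above mouse 6 of the *Ppara*+/+ group (5.94).

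At the membrane, *Slc27a2* was lowered and the other members were not called. *Slc27a2* (chromosome 2, probeset 10475653) encodes FATP2, which imports fatty acids and also activates very long-chain ones to acyl-CoA. Its log2 signal had a lowest value of 12.06, a median of 12.20 and a highest of 12.51 in *Ppara*-/- livers, against 12.58, 12.87 and 12.98 in *Ppara*+/+ livers. The groups were apart by 0.07, between mouse 1 of the *Ppara*-/- group and mouse 6 of the *Ppara*+/+ group. The means were 12.24 ± 0.16 in *Ppara*-/- livers and 12.83 ± 0.15 in *Ppara*+/+ livers (SD, n = 6 each). The difference of -0.59 (SE 0.08, adjusted p = 4.4e-04) is a 1.51-fold lower signal. It was -0.48 within the female livers (adjusted p = 0.076, 5 against 3) and -0.47 within the 6 highest animal numbers (adjusted p = 0.059), where the call was lost, and -0.58 within the 6 lowest (adjusted p = 0.039). With the sex score as a covariate it was -0.56 (adjusted p = 0.0020).

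*Cd36* (chromosome 5, probeset 10528207) encodes the receptor CD36, which binds long-chain fatty acids and is also made by endothelial cells, macrophages and platelets. It had a lowest log2 signal of 8.76, a median of 8.91 and a highest of 9.23 in *Ppara*-/- livers, against 9.01, 9.14 and 9.25 in *Ppara*+/+ livers. In 5 of 6 *Ppara*-/- livers the value lay below every *Ppara*+/+ liver, and mouse 1, at 9.23, was the exception. The difference was -0.21 (SE 0.07, 95% interval -0.37 to -0.06, adjusted p = 0.098) and was not called. It was called under 2 of 27 limma alternatives and not under the other 25. The 2 were the fit without mouse 1 of the *Ppara*-/- group (-0.27, adjusted p = 0.0086) and that with array weights (adjusted p = 0.019). Within the females the difference was -0.12 (limma, adjusted p = 0.72). Within the 6 highest animal numbers it was -0.18 (adjusted p = 0.46), and within the 6 lowest -0.19 (adjusted p = 0.61). Of the 10 endothelial markers 0 were called, with a mean log2 signal of 9.20 to 9.31 in *Ppara*-/- livers and 9.16 to 9.43 in *Ppara*+/+ livers. In 9 of these 10 the difference was below 0, with a median of -0.06 and the lowest in *Tek* (-0.21, limma, adjusted p = 0.096). Of 10 macrophage markers 2 were higher, *Csf1r* by 0.23 and *Cd5l* by 0.40, where 3.42% of all genes were higher. The list did not move in 1 direction, as 4 of the 10 differences were below 0. The lowest was that of *Vsig4*, at -0.25 (limma, adjusted p = 0.15). The mean over the list was 9.11 to 9.29 in *Ppara*-/- livers and 9.07 to 9.18 in *Ppara*+/+ livers. The *Csf1r* call held whichever liver was left out, and that of *Cd5l* in 3 of 12 such fits, those without mouse 1 of the *Ppara*-/- group and without mice 5 and 6 of the *Ppara*+/+ group. Of 5 megakaryocyte and platelet markers 0 were called, with a mean of 10.09 to 10.41 in *Ppara*-/- livers and 10.05 to 10.39 in *Ppara*+/+ livers. The part of these cells in the *Cd36* signal was not tested.

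*Slc27a4* (chromosome 2, probeset 10470751) encodes FATP4, a member of the same family that also acts as an acyl-CoA synthetase. Its log2 signal ran from 8.56 through a median of 8.62 to 8.69 in *Ppara*-/- livers, against 8.59, 8.67 and 8.73 in *Ppara*+/+ livers. The groups overlapped, and the difference was -0.05 (SE 0.04, adjusted p = 0.58), with an interval from -0.14 to 0.04. The same direction did not hold in every subset, as within the 6 lowest animal numbers the difference was 0.01.

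Of 10 other genes of fatty acid uptake and membrane transport, 0 were called in either direction, with a median difference of -0.02. The smallest p belonged to *Scarb1*, which encodes the HDL receptor SR-BI, at 0.15 (SE 0.05, adjusted p = 0.061). It was called without mouse 3 of the *Ppara*+/+ group (0.17, adjusted p = 0.044) and under 6 of the other limma settings. *Slc27a5*, which encodes the liver's bile acid-CoA ligase and fatty acid transporter FATP5, had a difference of -0.22 (SE 0.10, adjusted p = 0.21), and -0.29 (adjusted p = 0.047) without mouse 1 of the *Ppara*-/- group. It also passed with array weights (-0.28, adjusted p = 0.039), and was not called under the other 25 of 27 limma alternatives. Within the females the difference was -0.08 (limma, adjusted p = 0.88). Within the 6 highest animal numbers it was -0.09 (adjusted p = 0.81), and within the 6 lowest -0.16 (adjusted p = 0.59).

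Among the binding proteins, *Fabp1* and *Fabp2* had the largest falls of all members. *Fabp1* (chromosome 6, probeset 10538965) encodes the main fatty acid carrier of the hepatocyte cytosol. Its log2 signal had a lowest value of 10.82, a median of 11.09 and a highest of 11.36 in *Ppara*-/- livers, against 12.20, 12.42 and 12.48 in *Ppara*+/+ livers. The highest *Ppara*-/- liver and the lowest *Ppara*+/+ liver were 0.84 apart, the widest gap of any member. The means were 11.12 ± 0.20 in *Ppara*-/- livers and 12.39 ± 0.10 in *Ppara*+/+ livers (SD, n = 6 each). The difference of -1.27 (SE 0.08, 95% interval -1.46 to -1.09, adjusted p = 2.4e-07) left 41.3% of the *Ppara*+/+ signal, and by the size of its fall *Fabp1* had rank 38 among the 19938 genes. *Fabp1* alone of the members was called under all 27 limma alternatives, with differences from -1.33 to -1.20. Within the female livers it was -1.25 (adjusted p = 6.1e-04), and within the 6 lowest and 6 highest animal numbers -1.20 (adjusted p = 2.4e-04) and -1.25 (adjusted p = 0.0052).

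*Fabp2* (chromosome 3, probeset 10495820) encodes the intestinal form of the carrier, the main one of enterocytes. Its log2 signal had a lowest value of 5.21, a median of 5.63 and a highest of 6.37 in *Ppara*-/- livers, against 5.94, 6.73 and 7.40 in *Ppara*+/+ livers. The groups overlapped through mouse 1 of the *Ppara*-/- group and mouse 6 of the *Ppara*+/+ group, and 5 of 6 *Ppara*-/- livers lay below every *Ppara*+/+ liver. The means were 5.70 ± 0.40 in *Ppara*-/- livers and 6.76 ± 0.50 in *Ppara*+/+ livers (SD, n = 6 each), the widest spread of any member in both genotypes. The difference was -1.07 (SE 0.22, 95% interval -1.54 to -0.59, adjusted p = 0.0096), a 2.09-fold lower signal. Its mean signal was below the median of all genes, and a filter there left it out.

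The size of the *Fabp2* difference moved with the livers compared. It was -0.71 within the females (adjusted p = 0.32), -0.69 within the 6 highest animal numbers (adjusted p = 0.23) and -1.09 within the 6 lowest (adjusted p = 0.13), and was called in none of the 3. The *Ppara*-/- females averaged 5.74 (n = 5), against 6.45 in *Ppara*+/+ females and 7.07 in *Ppara*+/+ males (n = 3 each). With the sex score as a covariate the difference was -0.96 (adjusted p = 0.033), and with the low and high animal numbers as a block -0.89 (adjusted p = 0.018).

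Since *Fabp2* marks intestinal epithelium, 11 markers of that tissue were read beside it. *Lgals4*, a galectin of the gut lining, was lower by 1.37 (SE 0.11, adjusted p = 1.5e-06), with 6.03 ± 0.17 in *Ppara*-/- livers and 7.41 ± 0.25 in *Ppara*+/+ livers (SD, n = 6 each). *Vil1*, which encodes the brush border protein villin, was higher by 0.73 (SE 0.09, adjusted p = 2.1e-04), with 7.20 ± 0.19 in *Ppara*-/- livers and 6.48 ± 0.16 in *Ppara*+/+ livers (SD, n = 6 each). The mucin gene *Muc2* was higher by 0.20 (adjusted p = 0.041), a call kept in 2 of the 12 fits that left out a liver, those without mouse 1 of the *Ppara*-/- group and without mouse 6 of the *Ppara*+/+ group. The transcription factor genes *Cdx1* and *Cdx2* and the enterocyte enzyme genes *Sis*, *Lct* and *Alpi* were among the 8 not called. Over all genes 3.82% were lower and 3.42% higher. The mean over the list was 5.98 to 6.13 in *Ppara*-/- livers and 5.98 to 6.22 in *Ppara*+/+ livers, and its part in the *Fabp2* result was not tested.

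*Dbi* (chromosome 1, probeset 10357242) encodes the acyl-CoA-binding protein, which holds activated fatty acids after the synthetase step. Its log2 signal ran from 12.34 through a median of 12.41 to 12.47 in *Ppara*-/- livers, against 12.44, 12.54 and 12.63 in *Ppara*+/+ livers. In 5 of 6 *Ppara*-/- livers it lay below every *Ppara*+/+ liver, by small steps. The difference of -0.14 (SE 0.04, 95% interval -0.23 to -0.04, adjusted p = 0.085) was not called. It passed under 2 of 27 alternatives, with an intensity trend (adjusted p = 0.021) and with the dimmer genes left out (adjusted p = 0.032).

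The other carriers and acyl-CoA-binding proteins showed few calls. Of 9 other intracellular fatty acid carriers 0 were called, with a median difference of 0.04. *Scp2*, a sterol and fatty acyl carrier of peroxisomes, had a difference of -0.12 (SE 0.07, adjusted p = 0.32). *Fabp12* had the largest, at 0.45 (SE 0.15, adjusted p = 0.083). Mouse 1 of the *Ppara*-/- group read 7.57 for *Fabp12*, below the 8.28 to 8.47 of the other *Ppara*-/- livers and inside the range of the *Ppara*+/+ livers, which reached 8.14. Without that liver the difference was 0.58 (adjusted p = 0.0015), and without mouse 6 of the *Ppara*+/+ group 0.51 (adjusted p = 0.043). Under the 27 limma alternatives *Fabp12* was called in 5 and not called in 22. Of 6 other acyl-CoA-binding proteins 1 was lower, where 3.82% of all genes were lower. This was *Acbd5*, whose product tethers peroxisomes to the endoplasmic reticulum. It had 8.51 ± 0.13 in *Ppara*-/- livers and 8.96 ± 0.16 in *Ppara*+/+ livers (SD, n = 6 each), a difference of -0.45 (SE 0.08, adjusted p = 0.0028), and the groups were apart by 0.01. Within the females it was -0.35 (adjusted p = 0.15) and within the 6 highest animal numbers -0.24 (adjusted p = 0.34).

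**Figure D2:**
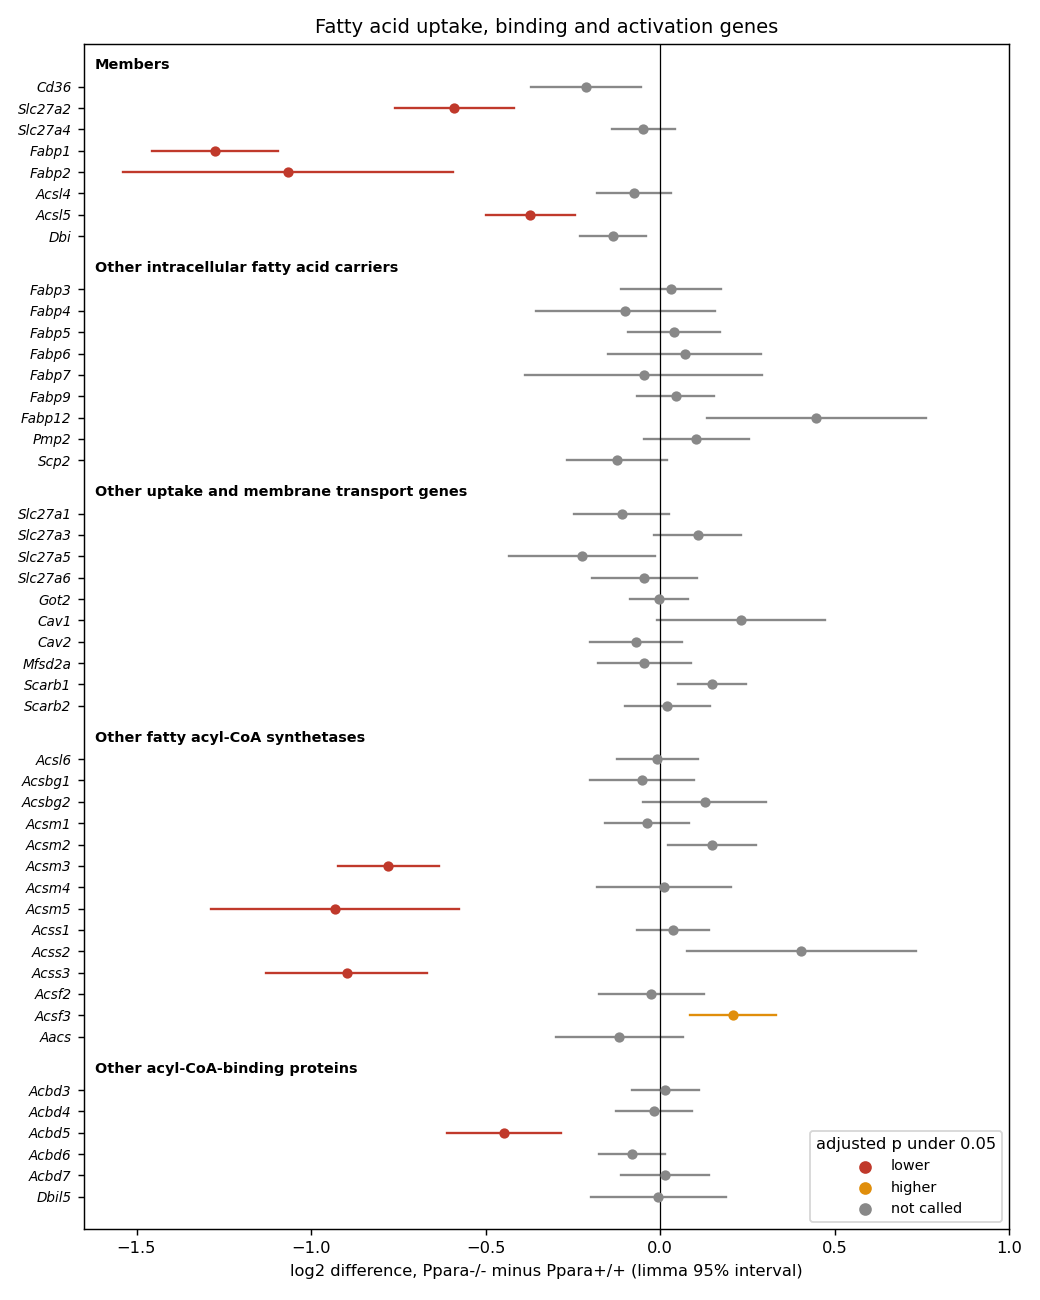
Log2 difference (x axis, *Ppara*-/- minus *Ppara*+/+, with limma's 95% interval) of the 8 measured members and of the other carriers, transport genes, synthetases and acyl-CoA-binding proteins (rows), coloured by whether the adjusted p was under 0.05. *Fabp1* at -1.27 and *Fabp2* at -1.07 lie farthest to the left, and the other lists centre on medians between -0.02 and 0.04.

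At the activation step *Acsl5* was lowered and *Acsl4* was not called, and the difference between their changes was not tested. The long-chain synthetase genes *Acsl1* and *Acsl3* had no value, so this step was read only in part. *Acsl5* (chromosome 19, probeset 10464045) encodes a long-chain acyl-CoA synthetase of mitochondria and endoplasmic reticulum. Its log2 signal had a lowest value of 11.05, a median of 11.28 and a highest of 11.40 in *Ppara*-/- livers, against 11.47, 11.67 and 11.69 in *Ppara*+/+ livers. Every *Ppara*-/- liver lay below every *Ppara*+/+ liver, with a gap of 0.07. The means were 11.26 ± 0.12 in *Ppara*-/- livers and 11.63 ± 0.09 in *Ppara*+/+ livers (SD, n = 6 each). The difference of -0.37 (SE 0.06, 95% interval -0.50 to -0.24, adjusted p = 0.0018) is a 1.29-fold lower signal. It was -0.33 within the females (adjusted p = 0.13) and -0.29 within the 6 highest animal numbers (adjusted p = 0.28), without a call, and -0.38 within the 6 lowest (adjusted p = 0.039).

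*Acsl4* (X chromosome, probeset 10607089) encodes the synthetase that prefers arachidonic acid. Its log2 signal ran from 10.03 through a median of 10.12 to 10.19 in *Ppara*-/- livers, against 10.07, 10.19 and 10.33 in *Ppara*+/+ livers. The groups overlapped, with a difference of -0.08 (SE 0.05, 95% interval -0.18 to 0.03, adjusted p = 0.44). The *Ppara*+/+ males and females averaged 10.18 and 10.19 (n = 3 each), and within the 6 highest animal numbers the difference was 0.00027.

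Of 15 other fatty acyl-CoA synthetases 14 were measured, of which 3 were lower, 1 higher and 10 not called, with a median difference of -0.02. Over all genes 3.82% were lower and 3.42% higher. The long-chain synthetase gene *Acsl1* was the member of this list without a value, so its dependence on *Ppara* was not tested here. The 3 that fell were *Acsm3* and *Acsm5*, medium-chain synthetases of mitochondria, and *Acss3*, a mitochondrial short-chain synthetase. *Acsm3* had 9.35 ± 0.14 in *Ppara*-/- livers and 10.13 ± 0.11 in *Ppara*+/+ livers (SD, n = 6 each), a difference of -0.78 (SE 0.07, adjusted p = 5.1e-06). *Acss3* had 6.31 ± 0.19 in *Ppara*-/- livers and 7.21 ± 0.24 in *Ppara*+/+ livers (SD, n = 6 each), a difference of -0.90 (SE 0.11, adjusted p = 1.5e-04). In both the genotypes did not overlap. *Acsm5* had 6.37 ± 0.29 in *Ppara*-/- livers and 7.30 ± 0.38 in *Ppara*+/+ livers (SD, n = 6 each), a difference of -0.93 (SE 0.17, adjusted p = 0.0036), and mouse 1 of the *Ppara*-/- group (6.87) lay above mouse 6 of the *Ppara*+/+ group (6.67). The calls of *Acsm3*, *Acss3* and *Acsm5* held whichever liver was left out. Within the 6 highest animal numbers *Acss3* had -0.65 (adjusted p = 0.080) and *Acsm5* -0.64 (adjusted p = 0.056), and within the females *Acsm5* had -0.72 (adjusted p = 0.20).

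*Acsf3*, a malonyl-CoA synthetase of mitochondria, was the 1 synthetase that was higher, by 0.21 (SE 0.06, adjusted p = 0.043), with 8.25 ± 0.13 in *Ppara*-/- livers and 8.05 ± 0.06 in *Ppara*+/+ livers (SD, n = 6 each). Its call was kept in 2 of the 12 fits that left out a liver, those without *Ppara*-/- mice 1 and 5, and in the other 10 the adjusted p lay between 0.053 and 0.10.

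The livers of 1 genotype varied together in the lowered members, and in part also in *Cd36* and *Slc27a4*, which were not called. Mouse 1 of the *Ppara*-/- group was its highest liver in 5 of 8 members (*Cd36*, *Slc27a2*, *Slc27a4*, *Fabp1* and *Fabp2*) and mouse 4 its lowest in 4 of 8 (*Slc27a2*, *Fabp1*, *Fabp2* and *Acsl5*). Mouse 6 of the *Ppara*+/+ group was the lowest of its genotype in 6 of 8 members, the exceptions being *Slc27a4* and *Dbi*. After each genotype's mean was subtracted, the 6 pairs among *Fabp1*, *Fabp2*, *Slc27a2* and *Acsl5* had Pearson correlations from 0.68 to 0.87 over the 12 livers. *Fabp1* and *Slc27a2* correlated at 0.87, *Fabp2* and *Slc27a2* at 0.86, and *Fabp2* and *Cd36* at 0.85. *Cd36* also correlated with *Slc27a2* at 0.82 and with *Fabp1* at 0.67, but with *Acsl5* at 0.44. *Slc27a4* correlated with the 4 lowered members at 0.39 (*Acsl5*) to 0.62 (*Fabp1*). The 13 pairs with *Acsl4* or *Dbi* ran from -0.37 to 0.31. All points share their array and its normalization, and these correlations are a description with no test.

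**Figure D3:**
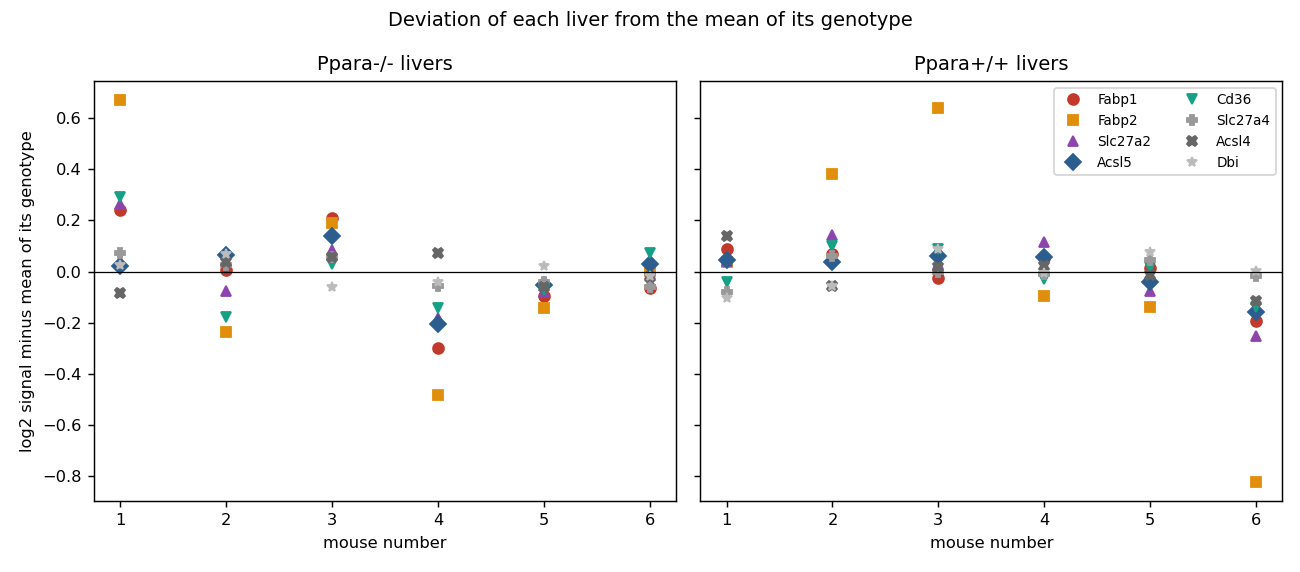
Log2 signal minus the mean of the liver's own genotype (y axis) for the 8 measured members, by mouse number (x axis), in *Ppara*-/- livers (left) and *Ppara*+/+ livers (right). *Fabp2* spans the widest range, from 0.67 in *Ppara*-/- mouse 1 to -0.82 in *Ppara*+/+ mouse 6, and *Fabp1*, *Fabp2*, *Slc27a2*, *Acsl5* and *Cd36* all lie below 0 in *Ppara*-/- mouse 4 and in *Ppara*+/+ mouse 6.

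The 4 lower members were also called without these livers. Without mouse 1 of the *Ppara*-/- group the differences were -1.32 for *Fabp1*, -1.20 for *Fabp2*, -0.64 for *Slc27a2* and -0.38 for *Acsl5*. Without mouse 6 of the *Ppara*+/+ group they were -1.31 for *Fabp1*, -1.23 for *Fabp2*, -0.64 for *Slc27a2* and -0.40 for *Acsl5*. All 4 were called in each of the 12 fits that left out a liver, with an adjusted p of at most 0.028. The 7 erythroid markers, read because the fetal liver makes blood, had a mean of 11.39 to 11.55 in *Ppara*-/- livers and 11.27 to 11.52 in *Ppara*+/+ livers, and with it as a covariate all 4 kept their call. Of the other marker lists read, 1 of 8 stellate and mesenchymal markers was lower and 1 higher, and 0 of 9 granulocyte, 6 adipocyte and 5 cholangiocyte markers were called. Over all genes 3.82% were lower and 3.42% higher. Of 4 hepatoblast markers 1 was called higher (*Dlk1*, by 0.42), and all 4 differences were above 0. In *Igf2* (0.06) and *Gpc3* (0.08), not called, every *Ppara*-/- liver lay above every *Ppara*+/+ liver, which held for 1.3% of all genes. The mean over the hepatoblast list was 12.63 to 12.75 in *Ppara*-/- livers and 12.49 to 12.68 in *Ppara*+/+ livers, and its part in the members' differences was not tested. The *Dlk1* call (adjusted p = 0.033) was kept in 4 of the 12 fits that left out a liver, those without *Ppara*-/- mice 1 and 3 and without *Ppara*+/+ mice 5 and 6. It was lost with the sex score (adjusted p = 0.098) and the erythroid score (adjusted p = 0.073) as covariates, and the difference was 0.17 within the 6 highest animal numbers (adjusted p = 0.49).

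**Figure D4:**
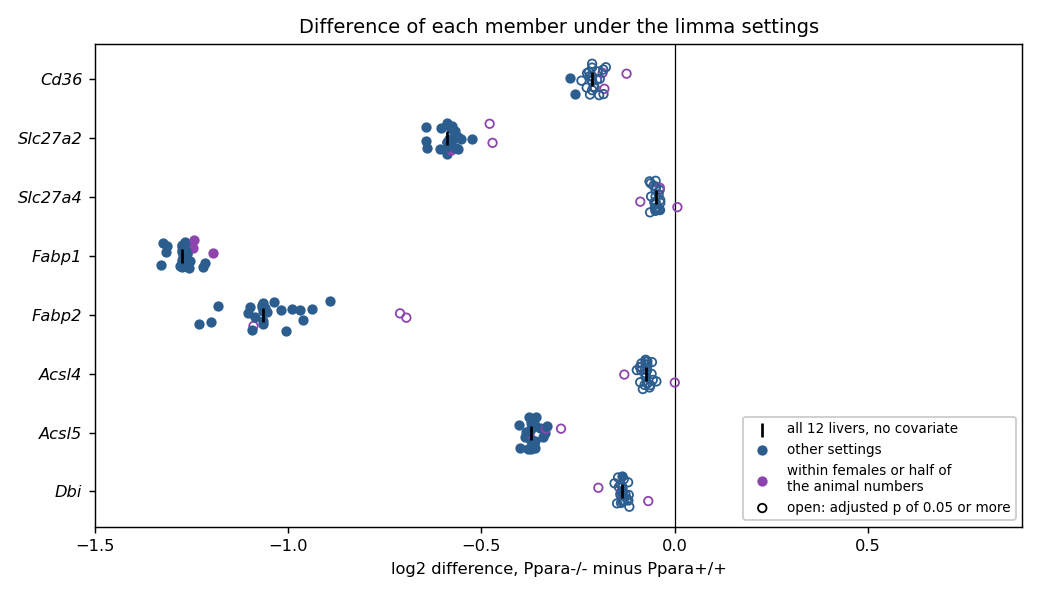
Log2 difference (x axis, *Ppara*-/- minus *Ppara*+/+) of each measured member (rows) in the fit of all 12 livers (black bar), under the other limma settings (blue) and within the females or within the lower or higher animal numbers (purple), with open circles where the adjusted p was 0.05 or more. *Fabp1* stays between -1.33 and -1.20 with every circle filled, whereas the purple circles of *Fabp2* reach -0.69 and are open.

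The genes most like each member across the 12 livers, after the genotype means were subtracted, were found by Pearson correlation over all genes. For *Fabp1* they were the cytochrome P450 genes *Cyp3a11* (0.96) and *Cyp2j5* (0.95) and the deacetylase gene *Hdac2* (0.95). Of these *Cyp2j5* was itself lower (-0.93, adjusted p = 0.0040). *Slc27a2* was nearest to the peroxisomal thioesterase gene *Acot4* (0.98), then *Tent4b* (0.98) and *Cyp3a25* (0.97), and 0 of these were called. For *Fabp2* they were *Ift74* (0.98), *Fut8* (0.98) and *Cse1l* (0.97), and for *Acsl5* *Zfand4*, *Pirb* and *Naip6* (0.94, 0.94 and 0.93), with 0 called. *Cd36* was nearest to *Fam20c* (0.94), *Baiap2* (0.94) and *Stat2* (0.94), of which *Stat2* was lower (-0.58, adjusted p = 0.0080). The other members had lower values, of at most 0.92 for *Slc27a4*, 0.90 for *Dbi* (with the olfactory receptor gene *Olfr521*) and 0.85 for *Acsl4*. All are the highest values picked from 19938 genes over 12 livers, and how high such values run for unrelated genes was not worked out. They are a description with no test.

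The measured genes next to the members on the chromosome were mostly not called. Of 18 neighbours 2 were called, both lower, where 3.82% of all genes were lower and 3.42% higher. The 18 include neighbours of *Cd36*, *Slc27a4*, *Acsl4* and *Dbi*, which were not called, and of *Acsl3*, which had no value. *Smyd1*, a muscle methyltransferase gene after *Fabp1*, had -0.24 (SE 0.06, adjusted p = 0.039), while *Thnsl2* on the other side had 0.21 (adjusted p = 0.092). *Sema3c*, a semaphorin gene before *Cd36*, had -0.34 (SE 0.09, adjusted p = 0.044). Both calls were weak, each kept in 3 of the 12 fits that left out a liver. That of *Smyd1* was kept without mice 1 and 5 of the *Ppara*-/- group and without mouse 2 of the *Ppara*+/+ group, and that of *Sema3c* without mouse 3 of the *Ppara*-/- group and without mice 1 and 6 of the *Ppara*+/+ group. In the other fits the adjusted p reached 0.093 for *Smyd1* and 0.099 for *Sema3c*. The neighbours of *Slc27a2*, *Fabp2* and *Acsl5* had differences between -0.10 and 0.10 and were not called.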

How the data were processed

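Livers of 6 *Ppara*-/- and 6 *Ppara*+/+ fetuses were compared by labelled genotype and numbered by the mouse number of their titles. RNA with an integrity number above 8 was labelled and hybridized to Affymetrix Mouse Gene ST arrays. Values are on the log2 scale, as deposited after the authors ran RMA, which corrects background, normalizes between arrays and gives 1 value per probeset; the RMA version and a genome build were not given in the sources used here. Probesets, 35556 in all, were named through the platform's table (21789 with 1 symbol, 1621 with several, 12146 with none), and 99.6% of those with 1 symbol matched the GRCm38.p6 gene table. The brightest of several probesets stood for a gene, with no filter on dim signals. All 19938 genes were fitted in limma 3.58.1 (lmFit, eBayes; R 4.3.3), two-sided and without covariates, and p-values were Benjamini-Hochberg adjusted with a threshold of 0.05. Differences are *Ppara*-/- minus *Ppara*+/+.

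The members and lists were chosen with earlier results of these data known. Named were all members, *Ppara*, up to 4 genes of each other list with the smallest p, the 3 genes most like each member and its measured neighbours. Markers of other cell types were counted as whole lists, and the ones that are named were picked after their values were seen. Other settings were renewed quantile normalization, median shift, filters at the 25th and 50th percentile, the mean of probesets, intensity trend with robust eBayes, array weights, a mouse number block, sex, erythroid and animal number covariates, a block of the 6 lowest and 6 highest animal numbers and the fits within each, omitting each liver and the exact Mann-Whitney test. The fit within females was added after the data were seen. The fit was tested on simulated arrays. Promoters came from RefSeq's table. Python 3.11.15, pandas 2.3.3 and matplotlib 3.10.9 were used.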

Additional observations from a re-analysis of the deposited data

How the results depend on the processing

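The count of 4 lower members stayed at 4 or 5 under the limma alternatives that used both sexes and all animal numbers, and 0 members were higher under any setting. It was 5 with array weights, which added *Cd36*, with an intensity trend, which added *Dbi*, and without *Ppara*-/- mouse 1, which added *Cd36*; it was 4 with *Dbi* in place of *Fabp2* when genes below the 50th percentile were left out, since *Fabp2* was not fitted there. It was 3 within the 6 lowest animal numbers, 1 within the 6 highest, 1 within the females and 0 by the exact Mann-Whitney test, whose smallest adjusted p over all genes was 0.060. These subsets hold fewer livers, and what else lowered the counts was not tested. Over all genes the count of 1443 became 2743 with array weights, 936 with the block of low and high animal numbers, 850 with the sex score, 156 within the females, 223 within the 6 highest and 193 within the 6 lowest animal numbers, 0 by the Mann-Whitney test, and 851 to 2521 when a liver was left out. With the mouse number as a replicate block 4 members were lower and 1619 genes were called. The block changed the call of no member and lost those of *Acsf3* (adjusted p = 0.056) and *Muc2* (adjusted p = 0.080). Deviations of same-numbered livers correlated at 0.019 to 0.39. The correlation was over 0.1 for 4 of the 6 numbers but not for mice 2 and 4, and since the labels name no litter the numbers were not taken to pair the livers. Of 12 livers 5 correlated best with their own number, out of 6 livers of the other genotype. The livers share these comparisons and the number expected without pairing was not worked out, so the count does not decide whether the numbers pair them. The other settings gave 1016 to 2012 genes. The number of arrays limits precision, fetal sex and animal number were not balanced between the genotypes, and the litter of each liver is not known here.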
